A study of Mus musculus with 9 samples.

Results

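Fragments of the nuclear-encoded histidine tRNA with the anticodon GTG (His-GTG) were taken as the serum reads whose every alignment lay on a mature nuclear His-GTG reference. The rule used names and no measured value, and found 1475 distinct sequences among 41240 on all tRNA references, with 14012 of 555585 tRNA reads (2.52%). Only 59 of them were seen in all 9 libraries, 818 were seen once, and 1152 carried a mismatch to the reference. The 20 most abundant held 45.2% of the reads. Reads of mitochondrial His-GTG were counted apart and are not described.

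Histidine tRNA brings histidine to the ribosome, and in serum, as in cells, tRNAs are also found as fragments cut in their loops. It differs from other tRNAs in its 5′ end, because a G that is not in the gene is added ahead of the first encoded base by the enzyme THG1L, and the histidyl-tRNA synthetase reads that base. In mature cytosolic tRNAs for His, Asn, Asp and Tyr the first anticodon base can carry the modified base queuosine.

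The study sequenced small RNA of blood serum from mice labelled for atherosclerosis, at week 20, with 3 libraries a group. The SalB group received a high fat diet with SalB, which is salvianolic acid B, a phenolic compound of Salvia root. The high fat diet group received the diet alone, and the normal diet group is the control. Titles of the normal diet libraries carry the name C57, while the sources used here name no strain for the other 2 groups, no dose or route of SalB and no age. Strain and diet thus cannot be told apart in a comparison with normal diet. No label ties the libraries of a group to separate animals, and the p-values below measure only the spread between libraries, which may be technical.

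The SalB libraries held 1646, 2624 and 1391 His-GTG reads, the high fat diet libraries 1826, 886 and 1337, and the normal diet libraries 1108, 863 and 2331. SalB replicate 2 stood apart: 42.0% of its tRNA reads lay on 1 precursor, Leu-CAG-3-1, against 0.0573 to 2.55% in the other SalB libraries and 0.0177 to 0.107% in the diet libraries. Mitochondrial tRNAs took 18.2%, 8.83% and 18.5% of the reads with SalB and 3.05 to 4.50% in the diet libraries. Values without SalB replicate 2 are given below where a call depends on it, and the part of the mitochondrial shift in the results was not tested. Levels are therefore given as normalised read counts scaled to a fixed library total (CPM), with libraries scaled by trimmed means of M values (TMM) over the abundant fragments, and as shares within the His-GTG reads, which do not depend on that scaling. All are relative amounts, and fewer source cells and less RNA per cell cannot be told apart.

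The 3 references, read from the alignments and written as DNA with the anticodon in capitals, show which copies the reads could come from:
His-GTG-2-1: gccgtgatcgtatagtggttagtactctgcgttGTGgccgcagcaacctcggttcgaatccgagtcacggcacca
His-GTG-1-1: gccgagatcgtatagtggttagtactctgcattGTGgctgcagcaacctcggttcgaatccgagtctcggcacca
His-GTG-3-1: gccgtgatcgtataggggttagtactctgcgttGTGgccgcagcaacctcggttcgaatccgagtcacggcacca

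Each is 75 bases long, the last 3 being the CCA tail, and the anticodon lies at 34 to 36. Against His-GTG-2-1, His-GTG-1-1 carries T5A, G31A, C39T and A67T and His-GTG-3-1 carries T16G, counted from 1 at the 5′ end. RefSeq (build GRCm38) lists 10 mouse genes of this tRNA, each 72 bases long, with 3 on chromosome 2 between 122375494 and 122378039, 6 on chromosome 3 between 96410069 and 96500437 and 1 on chromosome 4 at 82619623 to 82619694. The acceptor stem paired at 7 of 7 positions when the first reference base was counted as base 1, and at 1 of 7 when it was skipped. Base 1 of the references is thus the first encoded base, and reads with an added G align to the precursor references, 1 base upstream.

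The fragments on which the results turn are given here with capitals at the first base of 5′ fragments, at the bases of the CCA tail in 3′ fragments, and at bases 32 and 33 of the anticodon loop in internal fragments. Their names give the first and last base on the reference:
17 to 33: ggttagtactctgcgTT
17 to 31: ggttagtactctgcg
13 to 33: tagtggttagtactctgcgTT
13 to 31: tagtggttagtactctgcg
1 to 33: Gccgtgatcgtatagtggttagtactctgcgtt
1 to 31: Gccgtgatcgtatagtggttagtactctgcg
2 to 31: Ccgtgatcgtatagtggttagtactctgcg
2 to 26: Ccgtgatcgtatagtggttagtact
54 to 72: tcgaatccgagtcacggca
54 to 75: tcgaatccgagtcacggcaCCA

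Internal reads, which start after base 2 and stop short of the CCA tail, made up 66.0% of His-GTG reads over all libraries. Reads into the CCA tail made up 19.1%, reads from base 2 10.2% and reads from base 1 4.61%. Starts clustered at bases 1 to 3, 8 to 9, 13 to 19 and 54. Between bases 34 and 53, from the anticodon to the T arm, only 44 of 14012 reads started. The most abundant fragment, 54 to 75, held a mean of 9.48% of the His-GTG reads of a library, 17 to 33 held 4.77% and 17 to 31 held 3.83%. Of the 1475 sequences, 28 passed the filter on low counts and could be tested, and they held 51.2% of the reads; the other 1447 were too rare to test singly and enter only the sums.

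**Figure D1:**
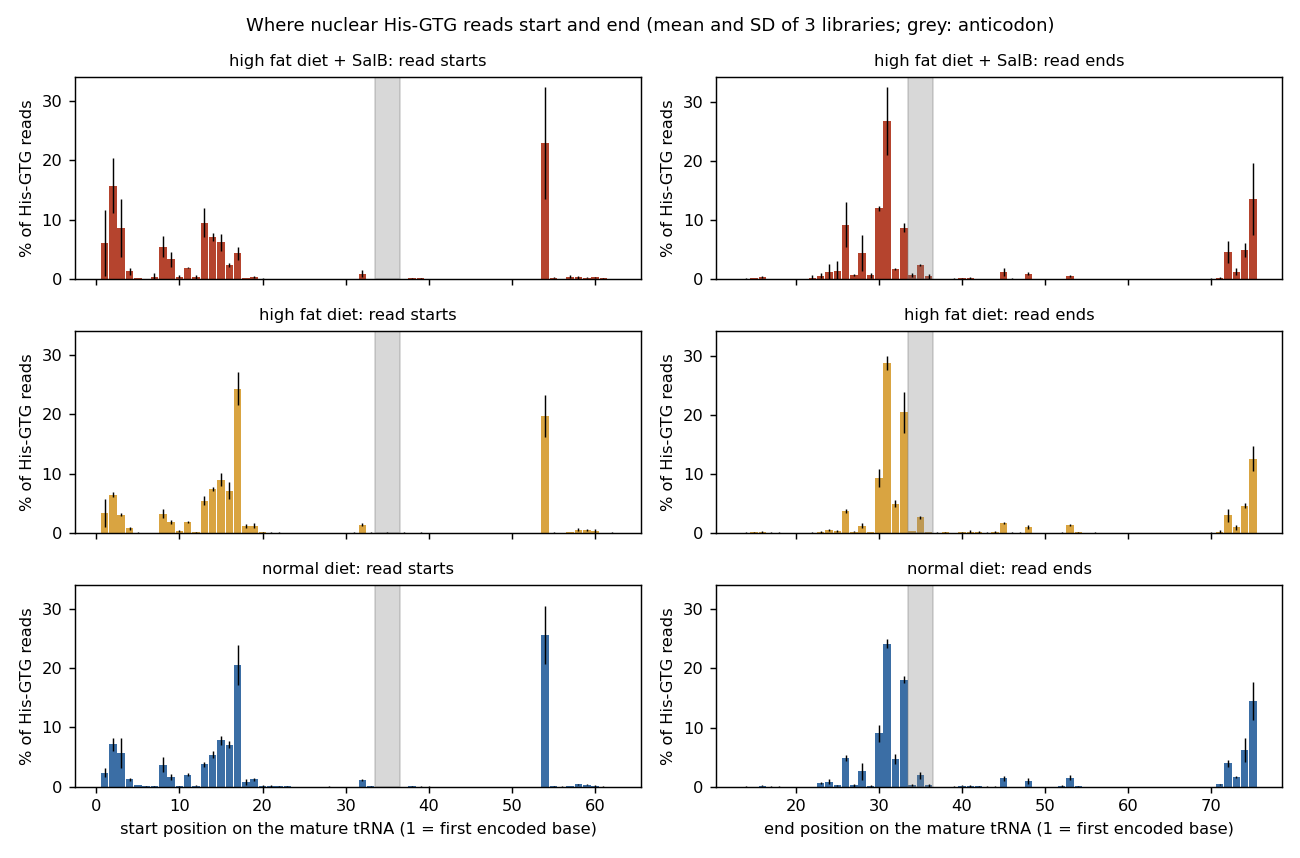
Start positions (left) and end positions (right) of His-GTG reads on the mature tRNA, as the mean percent of His-GTG reads with SD over 3 libraries, for SalB (top), high fat diet (middle) and normal diet (bottom). Starts at bases 16 to 19 held 7.27 ± 0.904% of reads with SalB, 33.8 ± 4.33% on high fat diet and 29.8 ± 3.89% on normal diet, and few reads start beyond the anticodon (grey) before base 54.

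The 5′ end was set against that of other tRNAs, because the added G is the feature that marks this family. Reads that start at base 2 made up a mean of 72.2% of the mature 5′ reads of His-GTG (those from base 1 or 2), with a range of 50.6 to 89.5% over the 9 libraries. In all other nuclear families pooled, base 2 starts made up 1.04% (0.516 to 1.36%), and in Asp-GTC, Asn-GTT and Tyr-GTA pooled 0.251%. His-GTG was higher in 9 of 9 libraries against either set (exact sign-flip permutation test over libraries, two-sided p = 0.0039 each, the smallest that 9 libraries allow). The difference from all other families was 70.1 percentage points in reads with no mismatch, against 71.1 in all reads. Mature 5′ reads made up 13.8% of His-GTG reads and 26.0% of those of other nuclear families, lower in 9 of 9 libraries (exact sign-flip p = 0.0039). In Asp-GTC, Asn-GTT and Tyr-GTA pooled they made up 24.5%. His-GTG was lower in 8 of 9 libraries, SalB replicate 2 being the exception with 28.5% against 7.98%, and this difference was not called (exact sign-flip p = 0.0586). The His-GTG shares here leave out reads that begin ahead of base 1, which lie on precursor references. By the rule itself this lowers the 5′ share of His-GTG and raises its base 2 share. In SalB replicate 2, 190 reads with G ahead and 136 with T were left out. The 5′ shares there were 28.5% in His-GTG and 36.2% in all other families. The lower 5′ share thus holds for mature reads only, and the comparison with the reads ahead included was not run.

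Reads that begin 1 base ahead of base 1 lie on the His-GTG precursor references and so are not counted among the 1475 sequences. The base there is C in 8 precursor references and T in that of His-GTG-1-1. The most abundant such reads are shown with that base in capitals, to set the added G beside the other letters:
G ahead, to base 26: Ggccgtgatcgtatagtggttagtact
G ahead, to base 31: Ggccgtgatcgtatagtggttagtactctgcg
G ahead, to base 33: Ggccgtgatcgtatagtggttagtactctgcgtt
T ahead, to base 23: Tgccgtgatcgtatagtggttagt
T ahead, to base 18: Tgccgtgatcgtatagtgg

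Over all libraries 324 reads with no other mismatch carried G ahead of base 1, 381 carried T, 42 carried A and 4 carried C, beside 471 reads from base 1 and 947 from base 2. In all other nuclear families 44634 reads without a mismatch started at base 1. There a read with a base ahead was counted only if that base differed from the precursor, so encoded letters were left out. For His-GTG all letters were counted. Of the reads so counted in other families, 0 carried G and 0 carried T, which allows 0.00672% for each (3 reads of the total, counting error only). A was carried by 3 and C by 3. The share with G in the sum of reads with G and reads from base 1 was 22.7 to 51.3% in the 9 libraries. In the other families each library had 0 reads with a G ahead that differed from the precursor. Reads with T ahead have the bases of His-GTG-2-1 in the body, not the T5A of His-GTG-1-1. Of the 381 reads with T, 114 ended at base 23, 55 at base 18 and 42 at base 26. Of the 324 with G, 12 ended at base 23, 64 at base 26, 52 at 31 and 49 at 33. These counts rest in part on SalB replicate 2, which held 61 of the 64 reads with G that ended at base 26. Without it 3 of 134 reads with G ended at base 26, 32 at 31, 40 at 33 and 9 at 23, and 88 of 245 reads with T ended at base 23, 23 at 18 and 21 at 26.

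Within these 5′ reads the shares were compared between groups. Reads with G ahead made up 8.82%, 21.2% and 8.10% of them in SalB replicates 1 to 3, 8.94%, 6.58% and 18.9% on high fat diet and 8.11%, 7.89% and 12.4% on normal diet, with overlap. Reads with T ahead made up 11.2%, 15.2% and 8.91% with SalB, 27.6%, 11.8% and 10.9% on high fat diet and 25.2%, 23.7% and 33.7% on normal diet. Every SalB library lay below every normal diet library, while high fat diet overlapped both. Reads with A ahead, 42 in all, were likewise a smaller share in each SalB library (0.588 to 1.79%) than in each normal diet library (1.80 to 3.51%). The exact permutation p of SalB against normal diet was 0.1 for either letter, the smallest that 3 against 3 libraries allow. The letter counts of a library ranged widely, since 190 of the 324 reads with G came from SalB replicate 2. None of the 6 starts passed the threshold over the 3 groups (exact permutation over all 280 partitions of the libraries, adjusted p from 0.557 to 0.811).

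**Figure D2:**
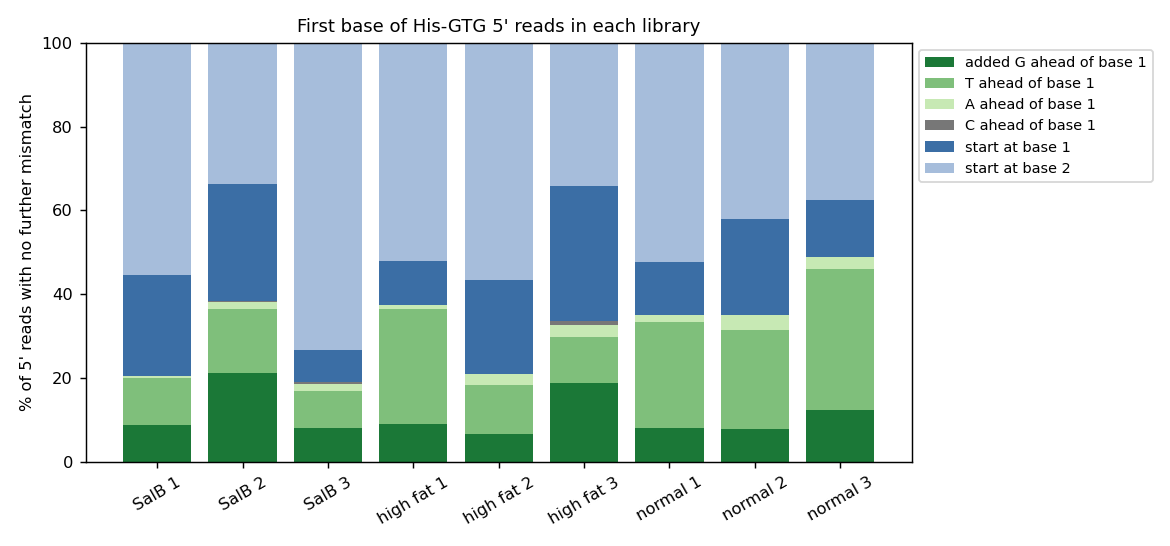
Percent of His-GTG 5′ reads in each library by their first base: an added G, a T, an A or a C ahead of base 1, base 1 itself, or base 2. Base 2 starts took 33.7 to 73.3% and reads with an added G 6.58 to 21.2%, with overlap between the SalB, high fat diet and normal diet libraries.

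The reads came almost wholly from sequences of the His-GTG-2-1 kind. Where the position was not the last base of the read, T5A was seen in 5 of 3209 reads, T16G in 59 of 8064, G31A in 10 of 3489 and A67T in 2 of 3266. As the last base of a read, G31A was seen in 794 of 3672. Its share of reads ending at base 31 was 35.7%, 23.4% and 22.1% with SalB, 22%, 15.6% and 22.8% on high fat diet and 14.4%, 12.9% and 17.2% on normal diet. Reads ending in that letter align to His-GTG-1-1, so a fragment is assigned to that copy here by its last base alone, and such fragments are named below by G31A.

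The comparison of SalB on a high fat diet with the diet alone asks which serum fragments differ with the compound. Among His-GTG reads the clearest difference was where they began in the D arm, the stem and loop between the 5′ end and the anticodon arm. Reads starting at base 17 fell with SalB and reads starting at bases 13, 2, 3, 8 and 9 rose, while the family total was not called. Of 16 start positions that passed the filter, 5 rose, 4 fell and 7 were not called (limma-voom, Benjamini-Hochberg adjusted p under 0.05 over 367 start sums of all families). Of all start sums 31.1% were called, 14.2% higher and 16.9% lower.

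Reads starting at base 17, in the D loop, stood at 1610, 2479 and 2925 normalised CPM in SalB replicates 1 to 3, 11285, 8459 and 9036 on high fat diet and 5798, 6823 and 7926 on normal diet. Each SalB library was below each diet library, and the sum fell with SalB against high fat diet (log2 fold change -2.08, SE 0.28, adjusted p = 0.00044). Without reads of the Leu-CAG-3-1 precursor the log2 fold change was -2.16, and without SalB replicate 2 it was -2.04. Their share of His-GTG reads behaved likewise, and the 4 starts from 16 to 19 together held 7.27 ± 0.904% with SalB, 33.8 ± 4.33% on high fat diet and 29.8 ± 3.89% on normal diet (SD, 3 libraries each). Base 16 starts (log2 fold change -1.15, SE 0.29, adjusted p = 0.0113), base 18 starts (log2 fold change -1.93, SE 0.58, adjusted p = 0.0254) and base 19 starts (log2 fold change -1.57, SE 0.53, adjusted p = 0.0398) fell as well. The call of base 16 was lost without SalB replicate 3 (-0.90). Leaving out SalB replicates 1 (-1.51) or 3 (-1.92) or high fat diet replicates 2 (-1.93) or 3 (-1.73) ended the call of base 18. For base 19 the call was lost without SalB replicates 1 (-1.51) or 2 (-1.08), high fat diet replicates 1 (-1.24) or 2 (-1.64) or normal diet replicate 3 (-1.46).

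Reads starting at base 13, ahead of the D loop, stood at 5524, 4556 and 4725 normalised CPM in SalB replicates 1 to 3, 2545, 1822 and 2079 on high fat diet and 1323, 1322 and 1112 on normal diet. All SalB libraries lay above all diet libraries, and the sum rose with SalB (log2 fold change 1.18, SE 0.25, adjusted p = 0.00399). Base 2 starts stood at 5052, 9939 and 10537 normalised CPM in SalB replicates 1 to 3, 2590.4, 2646 and 2367 on high fat diet and 2392, 2899.9 and 1891 on normal diet, again with no overlap (log2 fold change 1.67, SE 0.32, adjusted p = 0.00254). Base 3 (log2 fold change 1.72, SE 0.52, adjusted p = 0.0262), base 8 (log2 fold change 1.14, SE 0.34, adjusted p = 0.0228) and base 9 (log2 fold change 1.18, SE 0.36, adjusted p = 0.0254) rose too. Without high fat diet replicates 1 (1.66), 2 (1.74) or 3 (1.68), base 3 was not called. The call of base 8 was lost without high fat diet replicates 1 (1.04) or 3 (1.07). Leaving out high fat diet replicates 1 (1.01), 2 (1.18) or 3 (1.30) ended the call of base 9. Bases 14 and 15, between the starts that rose and those that fell, were not called, with log2 fold changes of 0.36 and -0.13.

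How far the rises can be read depends on the scaling. With total tRNA reads in place of TMM, the median log2 fold change of all 733 tested fragments moved to -1.0, against -0.15. The 5 start sums that rose were then between 0.35 and 0.94 and not called, while the 4 that fell kept their calls. A share within the same reads does not move with it. Of reads ending at bases 31 to 33, base 17 was the start of 8.66, 9.82 and 10.8% with SalB, 45.2, 42.1 and 39.3% on high fat diet and 36.7, 37.3 and 46.7% on normal diet. Base 13 was the start of 24.8, 18 and 14.4% with SalB, 6.06, 5.98 and 4.91% on high fat diet and 5.16, 3.30 and 4.0% on normal diet. Reads from base 13 thus outnumbered those from base 17 in every SalB library, with 2.86, 1.83 and 1.33 reads from base 13 for each from base 17, and were the fewer in every diet library, with 0.0856 to 0.142. Over the 3 groups the exact permutation p was 0.0214 for base 17 and 0.00714 for base 13 (adjusted 0.0214 and 0.0161 over 3 measures, 280 partitions). Between SalB and high fat diet alone it was 0.1 for either, the smallest that 3 against 3 libraries allow. These measures were chosen after the start profiles were seen. They are also tied, because a lower share at base 17 by itself raises the share of every other start. They therefore cannot show whether the level of base 13 reads rose.

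**Figure D3:**
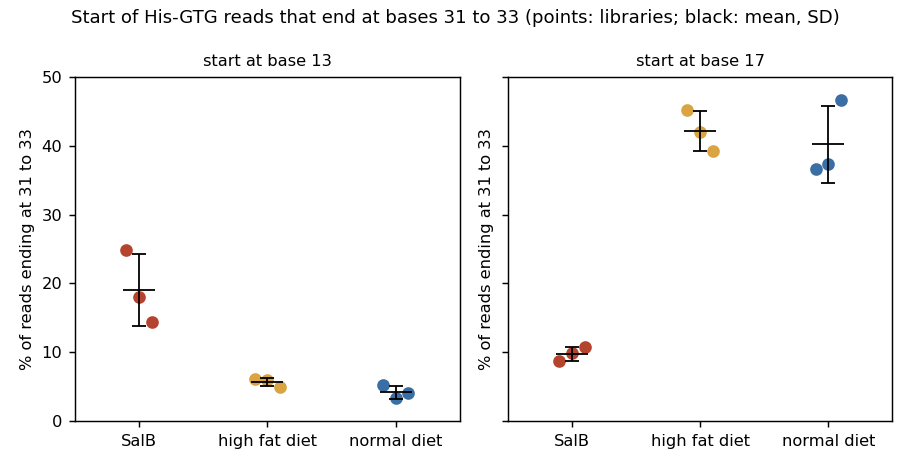
Percent of His-GTG reads ending at bases 31 to 33 that start at base 13 (left) or base 17 (right), with 1 point a library and the mean and SD of 3 libraries in black. The SalB libraries average 19% at base 13 and 9.75% at base 17, the high fat diet libraries 5.65% and 42.2%, and the normal diet libraries 4.15% and 40.2%.

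Single fragments were then tested, from the same reads. Of the 28 tested, 5 rose with SalB against high fat diet, 6 fell and 17 were not called, beside 34.2% of all 733 tested fragments called (17.6% higher and 16.6% lower), so that the number called is near the background. Their median log2 fold change was 0.33, against -0.15 over all. The count was 7 without SalB replicate 2, 6 without high fat diet replicate 1 and 7 without high fat diet replicate 3. The largest change was in the fragment 17 to 33, which ends at the base ahead of the anticodon. It stood at 278, 401 and 450 normalised CPM in SalB replicates 1 to 3, 3221, 2473 and 2656 on high fat diet and 2139, 2431 and 2016 on normal diet, with no overlap between SalB and either diet group (log2 fold change -2.88, SE 0.33, adjusted p = 0.000162). Its call was kept in all 17 other settings, though its SalB values rest on 10, 17 and 12 reads.

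All 6 fragments that fell start at base 16 or 17 and end at bases 31 to 33. The fragment 17 to 31 stood at 361, 519 and 825 normalised CPM in the SalB libraries, against 2793, 2039 and 1674 on high fat diet (log2 fold change -1.99, SE 0.39, adjusted p = 0.00413), and 17 to 32 at 55.5, 94.4 and 412 normalised CPM in the SalB libraries, against 969, 824 and 924 on high fat diet (log2 fold change -2.81, SE 0.64, adjusted p = 0.00781). The fragment 16 to 33 stood at 278, 307 and 225 normalised CPM in the SalB libraries, against 1397, 737 and 982 on high fat diet (log2 fold change -1.84, SE 0.39, adjusted p = 0.00563). In each the SalB libraries lay below all high fat diet libraries. The SalB values rest on few reads: 13, 22 and 22 of 17 to 31, 2, 4 and 11 of 17 to 32, and 10, 13 and 6 of 16 to 33. The other 2 are last-base variants, 17 to 31 with G31A (log2 fold change -1.92, SE 0.51, adjusted p = 0.015) and 17 to 33 with T33C (log2 fold change -2.35, SE 0.77, adjusted p = 0.0346). For the G31A variant the call was lost without SalB replicates 1 (-1.94) or 2 (-1.97). Without SalB replicates 1 (-1.22) or 3 (-2.57), high fat diet replicate 3 (-2.27) or normal diet replicate 1 (-2.38), the T33C variant was not called. The SalB libraries held 9, 11 and 3 reads of the G31A variant and 0, 6 and 2 of the T33C variant. In both variants and in 16 to 33 no SalB library reached the filter, which they passed only through diet libraries. Their falls thus cannot serve as support for the shared start.

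The fragments that rose start elsewhere. The fragment 13 to 31 stood at 1666, 1251 and 1275 normalised CPM in the SalB libraries, against 451, 390.4 and 289 on high fat diet (log2 fold change 1.86, SE 0.34, adjusted p = 0.00271), and 13 to 33 at 527, 755 and 787 normalised CPM in the SalB libraries, against 293, 260.3 and 346 on high fat diet (log2 fold change 1.12, SE 0.36, adjusted p = 0.034). The 5′ fragment 2 to 31 with G31A stood at 1138, 637 and 1537 normalised CPM in the SalB libraries, against 248, 130.1 and 289 on high fat diet (log2 fold change 2.09, SE 0.55, adjusted p = 0.0144), and 2 to 26 at 583, 1771 and 2137 normalised CPM in the SalB libraries, against 383, 564 and 577 on high fat diet (log2 fold change 1.37, SE 0.48, adjusted p = 0.0468). The groups did not overlap in any of these. The fragment 54 to 72, which stops ahead of the CCA tail, stood at 1971, 1605 and 1537 normalised CPM in the SalB libraries, against 676, 1215 and 693 on high fat diet (log2 fold change 1.04, SE 0.32, adjusted p = 0.0271). None of these 5 was called with total-read scaling. The fragment 2 to 31 with G31A kept its call in 11 of the 12 other settings in which it was tested. Without SalB replicate 2 it was too rare to be tested. The call of 13 to 33 was lost without SalB replicate 2 (1.15) or high fat diet replicates 1 (1.04), 2 (1.05) or 3 (1.22). Leaving out SalB replicates 2 (1.25) or 3 (1.17), high fat diet replicates 1 (1.11), 2 (1.43) or 3 (1.5) or normal diet replicates 1 (1.34) or 2 (1.36) ended the call of 2 to 26. For 54 to 72 the call was lost without SalB replicate 1 (1.03) or high fat diet replicates 1 (0.85) or 3 (0.91).

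**Figure D4:**
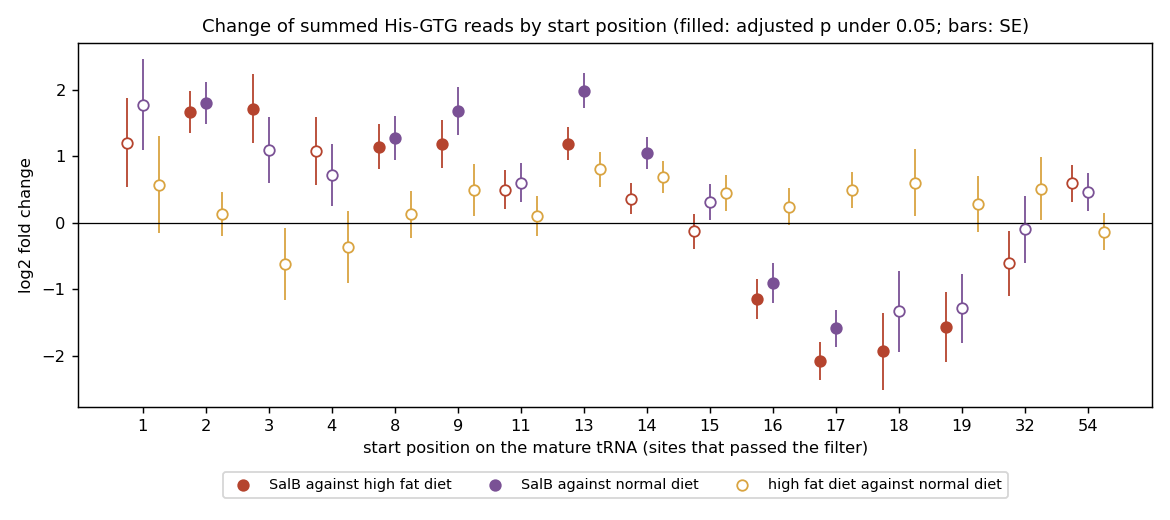
Log2 fold change (points) with SE (bars) of summed His-GTG reads at each start position that passed the filter, for SalB against high fat diet, SalB against normal diet and high fat diet against normal diet; filled points had a limma-voom adjusted p under 0.05. Starts 2, 8, 9 and 13 lie above 0 and starts 16 and 17 below 0 in both SalB comparisons, and no filled point belongs to high fat diet against normal diet.

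The same ends were shared by fragments of different starts. Of 15 tested end sums, ends at bases 26 (1.64), 28 (2.01), 30 (0.80) and 72 (1.05) rose with SalB against high fat diet, on the log2 scale, and ends at 32 (-1.07) and 33 (-0.80) fell, beside 29.8% (20.2% higher, 9.56% lower) of the 366 end sums of all families. Base 31, the commonest end ahead of the anticodon, was not called, with 11492, 13598 and 17286 normalised CPM in the SalB libraries against 12389, 10844 and 10739.8 on high fat diet (log2 fold change 0.29, SE 0.24, adjusted p = 0.367). With total reads the ends at 32 and 33 kept their calls, while those at 26 (0.86), 28 (1.24), 30 (0.055) and 72 (0.26) were not called. The adjusted p at base 28 was 0.0497. Without high fat diet replicate 1 (1.53), end 26 was not called. The call of end 28 was lost without SalB replicates 2 (1.43) or 3 (2.05), high fat diet replicates 1 (2.33), 2 (1.95) or 3 (1.74) or normal diet replicates 1 (1.98) or 2 (2.00). Leaving out high fat diet replicates 1 (0.89), 2 (0.82) or 3 (0.64) or normal diet replicates 1 (0.77) or 2 (0.79) ended the call of end 30. For end 32 the call was lost without SalB replicates 1 (-0.80) or 3 (-0.93) or high fat diet replicates 1 (-1.0) or 3 (-1.06). Without SalB replicates 1 (-0.64) or 3 (-0.71), high fat diet replicates 1 (-0.76) or 3 (-0.72) or normal diet replicate 3 (-0.70), end 33 was not called. The call of end 72 was lost without SalB replicate 1 (0.95), high fat diet replicates 1 (0.85) or 3 (0.95) or normal diet replicate 1 (1.02).

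By class, reads from base 2 rose with SalB and no other class was called, beside 29.9% (22.4% higher, 7.47% lower) of 174 class sums of all families, whose median log2 fold change was 0.47. Base 2 reads stood above both diet groups in all 3 SalB libraries, at the levels given for base 2 starts (log2 fold change 1.67, SE 0.32, adjusted p = 0.00475 among class sums). Base 1 reads stood at 1610, 7743 and 1237 normalised CPM in the SalB libraries, against 563, 1128 and 2309.6 on high fat diet, where SalB replicate 2 was highest and the other SalB libraries lay within the range of the high fat diet libraries (log2 fold change 1.21, SE 0.72, adjusted p = 0.213). Internal reads stood at 25872, 34868 and 32360.2 normalised CPM in the SalB libraries, against 31738, 26591 and 26936 on high fat diet (log2 fold change 0.11, SE 0.20, adjusted p = 0.703), a class that holds both the falls at bases 16 to 19 and the rises at bases 3, 8, 9 and 13. Reads into the CCA tail stood at 13158, 9396 and 8024 normalised CPM in the SalB libraries, against 6239.5, 8068 and 6987 on high fat diet (log2 fold change 0.50, SE 0.28, adjusted p = 0.192).

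The whole family stood at 45692, 61945 and 52159 normalised CPM in SalB replicates 1 to 3, 41131, 38433 and 38599.7 on high fat diet and 31183, 36804 and 32412 on normal diet. SalB libraries lay above both diet groups, yet the difference from high fat diet was not called (log2 fold change 0.43, SE 0.17, adjusted p = 0.0728), where 31.1% (26.2% higher, 4.85% lower) of 103 families were. With total reads the log2 fold change was -0.36. As a share of all tRNA reads, His-GTG took 2.64%, 1.68% and 3.47% with SalB, 3.29%, 3.14% and 3.01% on high fat diet and 2.58%, 2.78% and 2.46% on normal diet. On this scale the SalB libraries overlapped both diet groups, while all high fat diet libraries lay above all normal diet libraries. Between the diets the exact permutation p was 0.1, the smallest that 3 against 3 libraries allow.

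**Figure D5:**
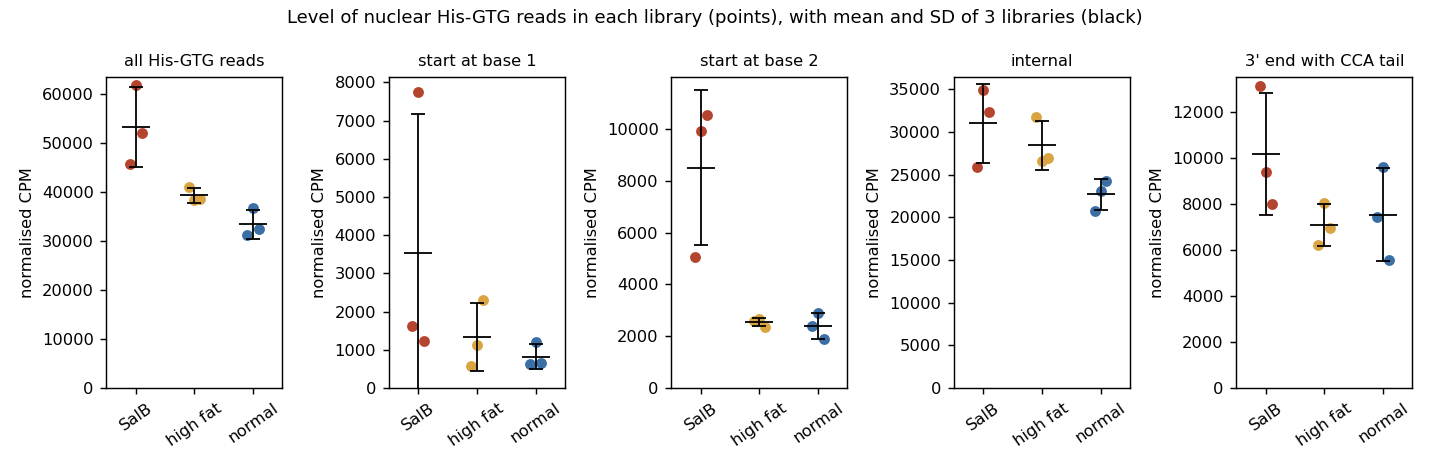
Normalised CPM of all His-GTG reads and of its 4 read classes in each library (points), with the mean and SD of 3 libraries in black, for SalB, high fat diet and normal diet from left to right. Base 2 starts are the class in which all SalB libraries (5052, 9939 and 10537) lie above all high fat diet (2590.4, 2646 and 2367) and normal diet (2392, 2899.9 and 1891) libraries and which was called.

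Within the His-GTG reads, mature 5′ reads made up 14.6%, 28.5% and 22.6% with SalB, 7.67%, 9.82% and 12.1% on high fat diet and 9.66%, 11.1% and 7.81% on normal diet. All SalB libraries were above all diet libraries, but the exact permutation p over 3 groups was 0.0286 and 0.229 when adjusted over the 8 shares computed, and none of the 8 passed. Of the 5′ reads, 65.1 ± 8.47% with SalB, 66.9 ± 9.40% on high fat diet and 61.1 ± 1.66% on normal diet were 28 to 36 bases long (SD, 3 libraries each), the length of a cut near the anticodon. The share of reads into the CCA tail that still cover base 57 of the T loop, a site of base methylation in other tRNAs, was 90.3 to 96.9% in the 9 libraries.

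None of the 4 tested fragments that reach into the CCA tail was called with SalB against high fat diet. The most abundant fragment of the family, 54 to 75, stood at 5829, 4344 and 3449.8 normalised CPM in SalB replicates 1 to 3, 3289, 3557 and 3320.1 on high fat diet and 3434, 5160.2 and 2614 on normal diet, with overlap between groups (log2 fold change 0.40, SE 0.33, adjusted p = 0.355). The shorter form 54 to 74 stood at 1249, 1275 and 862 normalised CPM in the SalB libraries, against 946, 1084 and 779.5 on high fat diet (log2 fold change 0.27, SE 0.34, adjusted p = 0.54). Last-base variants took part of these reads: C74T in 54 to 74 held a mean of 1.13% of His-GTG reads and A75G in 54 to 75 held 0.856%, the second with 45, 28 and 11 reads with SalB, 11, 5 and 4 on high fat diet and 6, 4 and 15 on normal diet, too few to be tested.

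Fragments of base 1 and base 2 that share their end were set side by side. Ends at base 31 had 92 reads without mismatch from base 1 and 357 from base 2, ends at base 26 had 69 and 275, and ends at base 30 had 95 and 99. At base 33 the order turned, with 94 reads from base 1 and 26 from base 2. SalB replicate 2 held most of the base 1 reads ending at 26 and 30. Without that library the counts from base 1 and base 2 were 64 and 265 at end 31, 10 and 200 at end 26, 26 and 54 at end 30 and 86 and 17 at end 33. Of the pairs, only 1 to 31 and 2 to 31 passed the filter together, and neither was called with SalB against high fat diet. The fragment 1 to 31 stood at 167, 661 and 225 normalised CPM in the SalB libraries, against 113, 434 and 318 on high fat diet (log2 fold change 0.54, SE 0.69, adjusted p = 0.553), and 2 to 31 at 888, 2172 and 3187 normalised CPM in the SalB libraries, against 563, 781 and 953 on high fat diet (log2 fold change 1.28, SE 0.47, adjusted p = 0.0528). The fragment 1 to 33 had 93 reads in all, 39 of them in high fat diet replicate 3, and was not tested.

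Starts at the same positions in other nuclear families were listed to set the D arm difference beside them. Of 38 tested start sums at bases 16 to 19 in 20 other families, 5 rose and 9 fell with SalB against high fat diet, with a median log2 fold change of 0.22 and a range from -2.68 to 1.29; in His-GTG 4 of 4 fell, with a median of -1.75. At bases 12 to 14, 10 of 23 rose in other families and 0 fell (by limma-voom, where 1 was lower at an unadjusted p under 0.05). Larger falls than that of His-GTG base 17 are thus found elsewhere, and the difference between families was not tested. Among the other tRNAs that can carry queuosine, Tyr-GTA fell as a family (log2 fold change -1.69, SE 0.50, adjusted p = 0.0314), with 10 of 22 tested fragments lower and 0 higher. Asp-GTC had 8 of 32 lower and 2 higher and a family log2 fold change of -0.066, and Asn-GTT a family log2 fold change of 0.14, neither called.

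Against normal diet, reads starting at bases 2, 8, 9, 13 and 14 rose with SalB and reads starting at bases 16 and 17 fell, in a comparison that shares its SalB libraries with the one above and in which strain may differ too. Starts at bases 3, 18 and 19, called against high fat diet, were not called here (limma-voom adjusted p = 0.102, 0.106 and 0.0747), and base 14 was called here and not against high fat diet. The difference between the comparisons was not tested. Of the 28 fragments 5 rose and 5 fell, beside 39% (20.5% higher, 18.6% lower) of all tested, and of the 16 start sums 5 rose and 2 fell, beside 34.6% (19.1% higher, 15.5% lower). The whole family rose (log2 fold change 0.68, SE 0.17, adjusted p = 0.0142), beside 34% (28.2% higher, 5.83% lower) of families called, but had a log2 fold change of -0.080 with total reads. Leaving out normal diet replicates 1 (0.60) or 3 (0.71) ended the call of the family. Base 17 starts fell (log2 fold change -1.59, SE 0.28, adjusted p = 0.00141) and base 16 starts fell (log2 fold change -0.91, SE 0.29, adjusted p = 0.0309). For base 16 the call was lost without SalB replicates 1 (-0.73) or 3 (-0.64), high fat diet replicate 3 (-0.90) or normal diet replicates 1 (-0.98), 2 (-0.92) or 3 (-0.83). Base 13 starts rose (log2 fold change 1.99, SE 0.26, adjusted p = 0.000272), as did bases 2, 8, 9 and 14 (1.80, 1.27, 1.68 and 1.04 on the log2 scale). Without normal diet replicate 3 (0.96), base 8 was not called. With total reads, which moved the median log2 fold change of all tested fragments to -0.98, against -0.10, bases 13 (1.26), 16 and 17 kept their calls and bases 2 (1.07), 8 (0.49), 9 (0.84) and 14 (0.31) were not called. Base 2 reads also rose as a class (log2 fold change 1.80, SE 0.32, adjusted p = 0.00262), beside 36.2% (27.6% higher, 8.62% lower) of class sums.

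Among single fragments against normal diet, 17 to 33 fell (log2 fold change -2.54, SE 0.33, adjusted p = 0.000335) and 13 to 31 rose (log2 fold change 2.66, SE 0.37, adjusted p = 0.000511). The fragments 16 to 33 (-1.76), 17 to 31 (-1.59), 17 to 32 (-2.54) and 17 to 33 with T33C (-2.25) fell on the log2 scale. Of these, 16 to 33 and the T33C variant again passed the filter only through diet libraries. The fragment 2 to 31, which missed the threshold against high fat diet, stood at 888, 2172 and 3187 normalised CPM in the SalB libraries, against 675, 682 and 431 on normal diet and rose (log2 fold change 1.66, SE 0.47, adjusted p = 0.0164). Its G31A variant (2.67), 13 to 33 (1.79) and 14 to 33 (1.22) rose too. With total reads 2 to 31 (0.91), 13 to 33 (1.03) and 14 to 33 (0.43) were not called, and the other 7 kept their calls. The call of 17 to 31 was lost without SalB replicate 1 (-1.18). Leaving out SalB replicates 1 (-1.08) or 3 (-2.46), high fat diet replicate 3 (-2.25) or normal diet replicates 1 (-2.26) or 3 (-2.16) ended the call of the T33C variant. For 2 to 31 the call was lost without normal diet replicate 3 (1.45). Its G31A variant was again too rare to be tested without SalB replicate 2. Without normal diet replicate 1 (0.84), 14 to 33 was not called. Ends at bases 26, 30, 31 and 35 rose (1.49, 1.08, 0.78 and 0.99), beside 39.6% (27.9% higher, 11.7% lower) of end sums, and with total reads none of them was called (0.75, 0.37, 0.093 and 0.21). The call of end 26 was lost without normal diet replicate 1 (1.33). Leaving out high fat diet replicate 1 (0.75) or normal diet replicates 1 (0.71), 2 (0.81) or 3 (0.83) ended the call of end 31. For end 35 the call was lost without high fat diet replicates 1 (0.96), 2 (0.98) or 3 (1.00) or normal diet replicates 1 (0.76) or 2 (0.95). Ends 28, 32, 33 and 72, called against high fat diet, were not called here.

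High fat diet against normal diet, the comparison of the diets, gave no call in the family. Of the 28 fragments 0 passed, beside 0% of all 733 by limma-voom. Limma on log2 values called 0 as well, and the unadjusted p was under 0.05 for 1 fragment. That fragment, 17 to 31 with G31A, stood at 901, 824 and 779.5 normalised CPM on high fat diet, against 253, 128 and 528 on normal diet (log2 fold change 1.31, SE 0.44, adjusted p = 0.308). The family sum had a log2 fold change 0.25, SE 0.17, adjusted p = 0.875, and all high fat diet libraries lay above all normal diet libraries. Base 13 starts had a log2 fold change 0.80, SE 0.27, adjusted p = 0.392 and base 17 starts a log2 fold change 0.49, SE 0.27, adjusted p = 0.52.

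Over all 9 libraries, the families whose level moved most like that of His-GTG were mitochondrial Ser-GCT (Pearson r 0.941), reads shared by Lys-CTT and Lys-TTT (0.923), precursor reads of Ile-AAT (0.912), reads shared by Lys-CTT and Sup-TCA (0.905) and iMet-CAT (0.901). These are descriptions over 9 libraries in 3 groups that share depth and scaling, chosen from 103 families by the size of r. By mean level His-GTG stood 9th of 103 families with SalB, 11th on high fat diet and 15th on normal diet.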

How the data were processed

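Small RNA libraries of serum were made with a commercial tRNA fragment kit, with adapter ligation and selection on a gel, and run on a NextSeq 500, per the labels' protocols. The submitters' processing notes name build mm10 and the tools Bowtie, cutadapt, FastQC and edgeR, without settings or versions. The authors deposited alignment lists in which identical reads are collapsed and the read count stands in the read name, with an offset, another number, for each alignment. Adapter ligation and reverse transcription can miss modified bases, which limits all levels.

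Each read was counted once and kept if all its alignments were on mature nuclear His-GTG references. Members, lists and measures were chosen with earlier results of these data known. Fragments, and sums by family, class, start and end, were tested with limma-voom (limma 3.58.1, R 4.3.3) in 1 fit over 9 libraries, with TMM factors of 0.471 (SalB replicate 2) to 1.21 computed from their definition and Benjamini-Hochberg adjustment at 0.05 over each table. A fragment was tested if it had 15 reads in all and, in 3 libraries, 10 reads when scaled to the median depth (44415 reads). Normalised CPM are scaled reads on fragments that passed it, from 28191 to 156333 tRNA reads a library. The procedure was run on simulated counts with the same spread for every fragment and no outlying library. That run does not cover a library such as SalB replicate 2. Shares were compared by exact permutation, two-sided (Python 3.11.15). Libraries of a group differed by more than sampling noise (chi-square per degree of freedom 2.70 to 48.7). Alternatives were RLE factors, total reads, 2 other filters, limma on log2 values (pseudocount 1), fits of only the libraries compared, a replicate block, and leaving out the Leu-CAG-3-1 precursor reads or each library. Position sums, the base ahead of base 1 and the base 13 and 17 shares were added after the data were seen. The named fragments are the 12 most abundant, all called (up to 10 a comparison), the 3 most abundant of each class, up to 6 pairs from bases 1 and 2 with a shared end, and the 5 families with the highest r.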

Additional observations from a re-analysis of the deposited data

Results flagged for a closer look

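Reads of the trailer, the 3′ flank that is cut off the precursor, lie outside the mature references and so outside the reads described above. On nuclear His-GTG precursors they stood at 18571, 8499 and 9262 normalised CPM in SalB replicates 1 to 3, against 6104, 6897 and 6987 on high fat diet and 6276, 7804 and 7870.1 on normal diet. Their mean was 12110.4 ± 5608 with SalB, 6663 ± 486 on high fat diet and 7317 ± 902 on normal diet (SD, 3 libraries each). On this scale a signal not used in the report thus lay above the control libraries in all 3 SalB libraries. As a share of tRNA reads, SalB replicate 2 instead lay below every diet library, with 360 of 156333 reads. High fat diet replicate 1 had 271 of 55465. SalB replicate 1 was highest. The difference was not tested.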

How the results depend on the processing

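Scaling by total reads turned the direction of 6 sums on the log2 scale. Of these, the family against normal diet had been called, and none was called with total reads. For SalB against high fat diet it gave -0.36 for the family, -0.64 for internal reads and -0.26 for CCA-tail reads, and for SalB against normal diet -0.080, -0.28 and -0.29. Base 2 reads then lost their call in both comparisons (0.95 and 1.09). The stricter filter called the family against high fat diet (0.48), and a fit of only the libraries compared lost its call against normal diet (0.57) and gave 0.017 for CCA-tail reads between the diets. With no filter 29 and 30 fragments were called for SalB against high fat diet and against normal diet, and 11 and 10 with it. The cause of these changes was not tested.

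With each library left out in turn, the log2 fold change of the family ran from 0.38 to 0.62 (SalB against high fat diet) and 0.60 to 0.90 (SalB against normal diet). Called fragments numbered 6 to 12 and 7 to 12. Base 1 and internal sums for SalB against normal diet ran from 1.05 to 2.37 and 0.33 to 0.68, and base 2 and CCA-tail sums between the diets from -0.11 to 0.26 and -0.31 to 0.14. Differences in percentage points, SalB minus high fat diet, ran from -15 to 2.28 for base 1 starts among 5′ reads, -5.35 to 3.56 and -3.92 to 0.796 for 5′ reads of 28 to 36 and 14 to 24 bases, -2.81 to 4.0 for CCA-tail reads and -0.818 to 4.36 for reads with a mismatch. Counting each sequence once gave 3.53 for 28 to 36 bases and -0.598 for mismatches, reads with no mismatch gave 0.0134 for 14 to 24 bases, and reads of 16 to 40 bases gave -0.127 for CCA-tail reads. The mismatch share has no value in reads without mismatch. The mature 5′ share of His-GTG minus that of Asp, Asn and Tyr was -13.2 points in reads of 16 to 40 bases, against -10.8. The first passed the threshold (exact sign-flip p = 0.043), though reads ahead of base 1 were again left out.

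Over the called fragments and position sums, 626 of 779 results under another setting kept direction and call, 153 lost the call and 0 turned. Settings in which a called fragment or sum did not pass the filter are left out of the 779. Without SalB replicate 2, 45 results of the 47 could be tested and 40 kept the call. The settings differed widely: with total reads 22 of 47 kept the call and 25 lost it. Deviations of same-numbered libraries correlated at -0.323 to 0.151, which with 3 libraries a group cannot show whether they share more than a number. With the replicate number as a block, the family changed by 0.42 with SalB against high fat diet, 12 fragments were called in place of 11, and 5 calls of 47 were lost (ends 28 and 30 against high fat diet, and end 35, 14 to 33 and 17 to 33 with T33C against normal diet). With 863 to 2624 His-GTG reads a library, sequences without 10 scaled reads in each of 3 libraries could not be tested. This left out some with many more reads in all, such as 54 to 75 with A75G (129 reads).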
